A study of Mus musculus with 10 samples.

Results

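Platelet-derived growth factor (PDGF) signalling in mouse kidney was followed through 10 genes, taken by name: the ligand genes Pdgfa, Pdgfb, Pdgfc and Pdgfd, the receptor genes Pdgfra and Pdgfrb, the contractile genes Acta2, Tagln and Myl9, and Rgs5. All 10 members were found among the 33644 genes of the bulk table, and all 10 passed the low-count filter that kept 17591 genes for testing. In the single-cell tables, all 10 were listed for injured kidney and 8 of 10 for uninjured kidney, where Pdgfra and Pdgfrb were not listed.

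PDGF ligands are secreted as dimers that bind a pair of receptor tyrosine kinases on stromal cells. The A and C chains act mainly through the alpha receptor, and the B and D chains mainly through the beta receptor, which recruits pericytes and smooth muscle cells, together called mural cells, to vessels. In injured kidney, perivascular fibroblasts and pericytes can turn into myofibroblasts, cells that make collagen and express smooth muscle actin. Acta2, Tagln and Myl9 are smooth muscle genes that myofibroblasts also use, whereas Rgs5 is best known as a pericyte gene.

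Bulk RNA was measured in 8 groups of 8-week-old mice. Ischaemia was 15 min of renal artery ligation on 1 side, and the injured and the contralateral kidney were taken 2 weeks later. The wild-type tamoxifen arm was C57/BL6 given tamoxifen. The other arms were Pax8creERT2;Ihhfl/fl mice, in which tamoxifen-activated Cre under the tubular Pax8 driver removes the floxed Indian hedgehog gene Ihh. With tamoxifen they form the labelled Ihh-deleted arm, and without it the floxed vehicle arm, so that the intact arms differ from it in genotype (wild-type) or in drug (vehicle). The other groups were C57/BL6 kidneys contralateral to a nephrectomy and uninjured C57/BL6 kidneys. Each of the 6 ischaemia groups had 4 libraries. The labels do not say that these came from separate animals, so p-values measure the spread between libraries, which may be technical.

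The rule left out 3 of 32 libraries, 1 from the nephrectomy group and 2 from the uninjured group, which held heart Myh6 at 30525 to 31549 CPM, counts relative to the library total and the proximal tubule gene Slc34a1 at 0.920 to 3.70 CPM. This left 3 nephrectomy and 2 uninjured libraries. The total count of a library lay between 18.2M and 37.9M in the ischaemia groups, ranged from 8.32M to 28.0M after nephrectomy, and stood at 0.592M and 7.55M counts in uninjured kidneys, where the smaller library gave 8 to 32 counts per member. Nephrectomy library 1 kept 314 CPM of Myh6, against at most 3.56 CPM in the other retained libraries. Ihh itself was low. After scaling it stood at 4.25 to 6.0 CPM in injured labelled Ihh-deleted kidneys and at 4.77 to 13.7 CPM in the 8 injured intact ones, a log2 difference of -0.72 ± 0.33 (SE) that did not pass the quasi-likelihood test of edgeR, adjusted by Benjamini-Hochberg (adjusted p = 0.0828). Contralateral labelled Ihh-deleted library 4 held 18.3 CPM of Ihh, against its label. For this reason the arm is called "labelled Ihh-deleted" throughout.

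Levels below are CPM after TMM scaling, a correction for the make-up of each library, unless they are given per kilobase of transcript. Fold changes are log2 values with their standard error from 1 edgeR quasi-likelihood fit over 29 libraries, and p-values are Benjamini-Hochberg adjusted over all 17591 genes with a threshold of 0.05.

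Ischaemia moved most of the members. In injured against contralateral kidneys, averaged over the 3 arms, 8 members rose, Pdgfc fell and Pdgfd did not pass the test. This was a comparison in which 73.7% of all genes tested were called, so the call alone sets no member apart from other genes. The sizes differed more than the calls. Tagln rose 3.83-fold and Acta2 3.06-fold, while Pdgfrb rose 1.38-fold. Over the 10 members the median log2 change was 0.85, beside 0.05 over all genes. Scaling by library totals in place of TMM factors, an alternative chosen after the data were seen, raised the median of all genes to 0.42 and the share of calls that were higher from 52.9% to 75.6%. No called member turned direction under it.

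**Figure D1:**
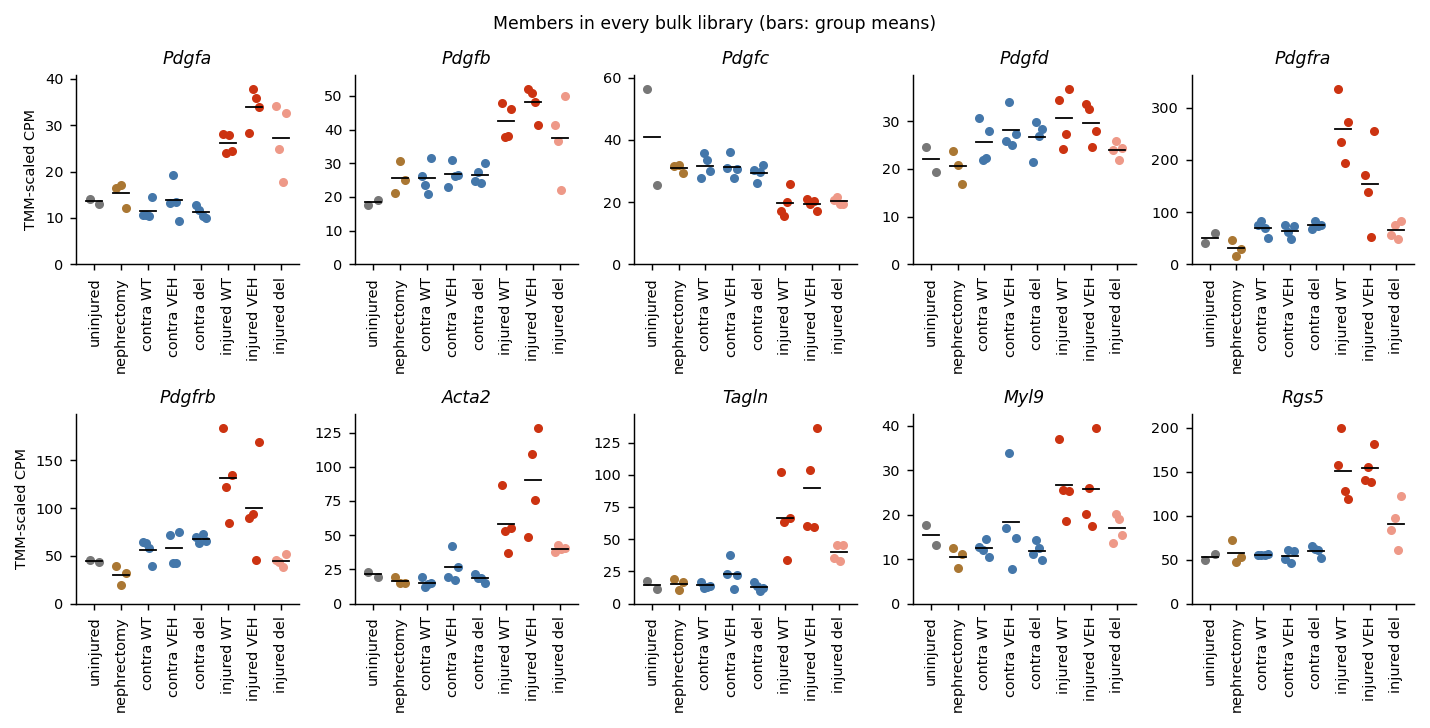
Level of each member in every library, as TMM-scaled CPM on linear axes that start at 0, with 1 panel per gene, 1 point per library and a bar at each group mean; "del" stands for the labelled Ihh-deleted arm, "VEH" for floxed vehicle and "WT" for wild-type tamoxifen. Pdgfra and Pdgfrb were high in injured intact kidneys and at or under the contralateral range in injured labelled Ihh-deleted ones, whereas Acta2 and Tagln were above most contralateral libraries in all 3 injured groups.

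Among the ligands, Pdgfa is the classical partner of the alpha receptor and lies on chromosome 5, from 138976014 to 138997370 (GRCm38, minus strand). It ranged from 9.34 to 19.2 CPM, with a median of 11.2, in the 12 contralateral libraries, and from 17.7 to 37.9 CPM, with a median of 28.2, in the 12 injured ones. The ranges overlapped through contralateral vehicle library 2, the highest of its side, and injured labelled Ihh-deleted library 3, the lowest of its own. Pdgfa rose by 1.25 ± 0.11 on the log2 scale (adjusted p = 1.16e-09), and by 1.18, 1.30 and 1.28 in the wild-type, vehicle and labelled Ihh-deleted arms, each called. These arms called 60.7%, 63.7% and 33.8% of all genes.

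Pdgfb, the ligand by which endothelial cells attract pericytes, lies on chromosome 15 from 79995874 to 80014977 (minus strand). It stood at 20.8 to 31.6 CPM, median 26.2, in contralateral kidneys and at 22 to 52.1 CPM, median 43.8, in injured ones. Only injured labelled Ihh-deleted library 3, at 22 CPM, lay inside the contralateral range. The rise was 0.69 ± 0.10 (adjusted p = 1.46e-06), with 0.73, 0.85 and 0.49 in the 3 arms, each past the threshold.

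Pdgfc is a ligand that has to be cut by a protease before it can bind. It lies on chromosome 3 from 81036416 to 81214040 (plus strand) and was the 1 member that fell. Contralateral kidneys held 26.1 to 35.9 CPM, median 30.4, and injured kidneys 15.7 to 25.7 CPM, median 19.7, without overlap after scaling. Before scaling the ranges were 24.2 to 32.5 CPM and 18.4 to 30.9 CPM, and they overlapped. The share of all genes without overlap was not counted, for this or any other member or comparison. The log2 change was -0.64 ± 0.09 (adjusted p = 7e-07), at -0.70, -0.69 and -0.55 in the wild-type, vehicle and labelled Ihh-deleted arms.

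Pdgfd, the other protease-activated ligand, lies on chromosome 9 from 6168584 to 6378850 (plus strand). Its contralateral range, 21.5 to 34.1 CPM, lay almost inside its injured range, 21.8 to 36.9 CPM. The difference of 0.06 ± 0.09 did not pass the test (adjusted p = 0.535). With library totals as scaling it was 0.43 and passed (adjusted p = 0.000116).

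None of the ligands passed the test between injured labelled Ihh-deleted and injured intact kidneys, where 37.2% of all genes were called. Their differences were -0.12 ± 0.16 for Pdgfa, -0.27 ± 0.15 for Pdgfb, 0.05 ± 0.13 for Pdgfc and -0.33 ± 0.13 for Pdgfd, with adjusted p-values of 0.576, 0.164, 0.797 and 0.0515. The 95% interval for Pdgfa ran from -0.44 to 0.20. Pdgfd is close to the threshold: 4 injured labelled Ihh-deleted libraries held 21.8, 24.1, 24.3 and 25.8 CPM, and the injured intact libraries 24.3 to 36.9, median 30.3. It passed with RLE factors (-0.39, adjusted p = 0.0251) and with DESeq2 (adjusted p = 0.0162).

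The change of both receptors depended on the arm. Pdgfra, which marks fibroblasts in many tissues, lies on chromosome 5 from 75152292 to 75198215 (plus strand). It stood at 47.8 to 83.8 CPM, median 73.0, in contralateral kidneys. Injured wild-type libraries held 337, 234, 193 and 273 CPM, and injured vehicle libraries 172, 139, 51.9 and 256 CPM. Injured labelled Ihh-deleted libraries held 56.2, 76.0, 49.3 and 83.8 CPM. Thus all wild-type libraries and 3 of 4 vehicle libraries lay above every contralateral library, vehicle library 3 did not, and the labelled Ihh-deleted libraries spanned the contralateral range.

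Pdgfra rose by 1.90 ± 0.33 in the wild-type arm (adjusted p = 3.35e-05) and by 1.26 ± 0.32 in the vehicle arm (adjusted p = 0.00166). In the labelled Ihh-deleted arm the change was -0.18 ± 0.32 (adjusted p = 0.694). The difference between these injury effects was itself tested and came to -1.76 ± 0.40 (adjusted p = 0.00901), in a test that called 16.1% of all genes. Between injured kidneys, Pdgfra fell by 1.59 ± 0.30 in the labelled Ihh-deleted arm relative to the intact arms (adjusted p = 0.000604), to 0.331 of their level. It was lower against wild-type alone (-1.97, adjusted p = 0.000226), a comparison calling 38.6% of genes, and against vehicle alone (-1.22, adjusted p = 0.0176), calling 16.4%.

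Pdgfrb, the receptor of mural cells and of their fibroblast neighbours, followed the same order of groups. Contralateral kidneys held 39.0 to 75.0 CPM, median 64.3. Injured wild-type libraries held 184, 122, 84.3 and 135 CPM, injured vehicle libraries 89.5, 93.8, 46.1 and 169 CPM, and injured labelled Ihh-deleted libraries 45.8, 43.6, 38.3 and 52.3 CPM. The labelled Ihh-deleted libraries lay in or just under the lower part of the contralateral range, and vehicle library 3 was again the only intact library within it.

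Pdgfrb rose by 1.22 ± 0.29 in the wild-type arm (adjusted p = 0.000857) and by 0.78 ± 0.29 in the vehicle arm (adjusted p = 0.0205). The labelled Ihh-deleted arm gave -0.60 ± 0.29 (adjusted p = 0.107). The difference of the injury effects was -1.60 ± 0.35 (adjusted p = 0.00843), and the injured labelled Ihh-deleted kidneys lay 1.35 ± 0.26 below the injured intact ones on the log2 scale (adjusted p = 0.000801). The rise averaged over the arms, 0.47 ± 0.17 (adjusted p = 0.0136), therefore joins arms that differ by test, as does that of Pdgfra, 1.0 ± 0.19 (adjusted p = 3.95e-05).

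**Figure D2:**
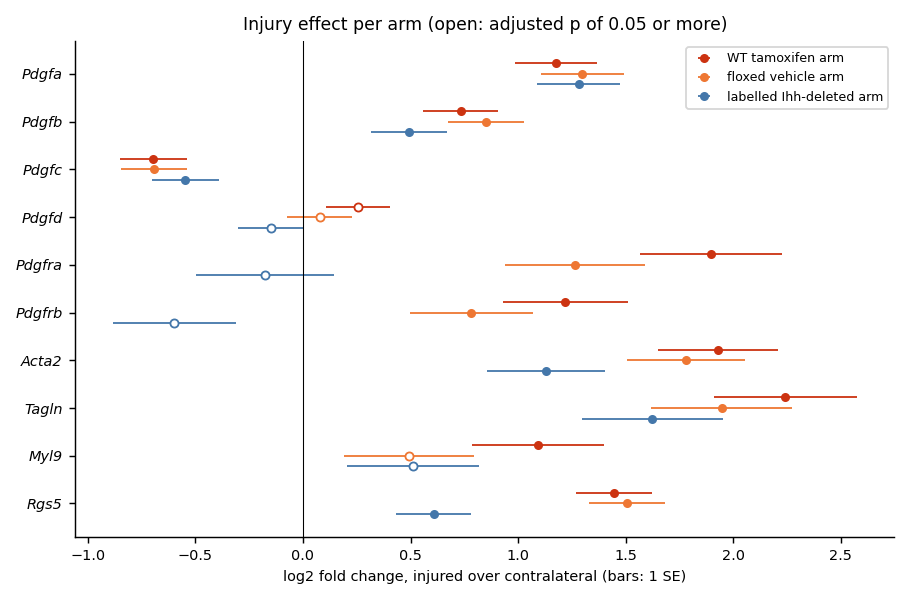
Log2 fold change of each member, injured over contralateral, in each arm, with bars of 1 SE and open points where the adjusted p was 0.05 or more. Pdgfra stood at 1.90 and 1.26 in the wild-type and vehicle arms and at -0.18 in the labelled Ihh-deleted arm, while Pdgfa stood at 1.18, 1.30 and 1.28.

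Acta2, smooth muscle alpha actin, lies on chromosome 19 from 34241090 to 34255590 (minus strand). Contralateral kidneys held 12.1 to 42.1 CPM, median 18.4. Injured wild-type libraries held 87.0, 52.7, 36.6 and 55.2 CPM, injured vehicle libraries 48.7, 109, 75.8 and 128 CPM, and injured labelled Ihh-deleted libraries 37.9, 42.9, 39.9 and 40.4 CPM. The sides overlapped through contralateral vehicle library 2 alone, which also held the highest contralateral Tagln, Myl9 and Pdgfa and the largest library total.

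Acta2 rose in every arm, by 1.93 ± 0.28 in wild-type (adjusted p = 4.86e-06), 1.78 ± 0.28 in vehicle and 1.13 ± 0.27 in labelled Ihh-deleted kidneys (adjusted p = 0.00358). Injured labelled Ihh-deleted kidneys were 0.85 ± 0.24 below the intact ones (adjusted p = 0.00854). This rested on the vehicle arm: against it alone the difference was -1.17 (adjusted p = 0.0103), and against wild-type alone -0.52 (adjusted p = 0.123). The injury effects differed by -0.72 ± 0.33, which did not pass (adjusted p = 0.125) and passed without contralateral vehicle library 2 (-0.88, adjusted p = 0.0452).

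Tagln, the actin-binding protein transgelin, lies on chromosome 9 from 45929619 to 45936058 (minus strand). Contralateral kidneys held 9.76 to 37.6 CPM, median 13.7. Injured wild-type libraries held 102, 63.4, 33.5 and 66.1 CPM, vehicle libraries 59.9, 104, 59.5 and 136 CPM, and labelled Ihh-deleted libraries 35.6, 45.3, 33.3 and 45.7 CPM. Wild-type library 3 was level with the labelled Ihh-deleted libraries, and the other intact libraries were above them.

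Tagln had the largest injury effect of the members, 1.94 ± 0.19 (adjusted p = 5.14e-09), and rose in every arm, by 2.24, 1.95 and 1.62. Injured labelled Ihh-deleted kidneys were 0.95 ± 0.29 below the intact ones (adjusted p = 0.0123). The call was lost against wild-type alone (-0.73, adjusted p = 0.0712) and without injured labelled Ihh-deleted library 3 (-0.87, adjusted p = 0.0564). The difference of the injury effects was -0.47 ± 0.39 and did not pass (adjusted p = 0.411).

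Myl9, a regulatory light chain of smooth muscle myosin, lies on chromosome 2 from 156775420 to 156781658 (plus strand). It stood at 7.74 to 33.8 CPM, median 12.6, in contralateral and 13.5 to 39.5 CPM, median 20.2, in injured kidneys. The rise over the arms was 0.70 ± 0.18 (adjusted p = 0.000998). It passed in the wild-type arm (1.09, adjusted p = 0.00358) and not in the vehicle arm (0.49, adjusted p = 0.156) or the labelled Ihh-deleted arm (0.51, adjusted p = 0.196). Injured labelled Ihh-deleted kidneys gave -0.63 ± 0.27 against intact ones (adjusted p = 0.0688), and passed with RLE factors (adjusted p = 0.0464) and DESeq2 (adjusted p = 0.0308).

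Rgs5, a brake on G-protein signalling in pericytes, lies on chromosome 1 from 169655501 to 169695813 (plus strand). Contralateral kidneys held 45.7 to 65.4 CPM, median 56.0, the narrowest relative spread of the contractile and mural members. Injured wild-type libraries held 158, 200, 128 and 119 CPM, vehicle libraries 140, 155, 138 and 181 CPM, and labelled Ihh-deleted libraries 83.3, 97.4, 61.2 and 122 CPM. All intact libraries were above all contralateral ones, a separation whose share over all genes was not counted. Labelled Ihh-deleted libraries 1 and 2 lay between the intact and contralateral ones. Library 3 lay inside the contralateral range, and library 4 was above the lowest intact library.

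Rgs5 rose by 1.45 ± 0.18 in wild-type, 1.5 ± 0.18 in vehicle and 0.61 ± 0.17 in labelled Ihh-deleted kidneys, each called (adjusted p = 0.0105 in the last). The injury effect was smaller in the labelled Ihh-deleted arm by 0.87 ± 0.21 (adjusted p = 0.0132). Injured labelled Ihh-deleted kidneys were 0.74 ± 0.15 below intact ones (adjusted p = 0.00117), and the call held against wild-type alone (-0.73) and vehicle alone (-0.75).

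In all, 5 of 10 members were lower in injured labelled Ihh-deleted than in injured intact kidneys. Of all genes 37.2% were called there, 16.7% lower and 20.5% higher. The injury effect was lower for 3 of 10, beside 16.1% of all genes called, 5.74% lower and 10.4% higher. Without injured labelled Ihh-deleted library 3 these were 4 members, with 20.1% of all genes called in either direction, and 3 members, with 4.86%. Over all genes, 55.2% of the calls between injured kidneys were higher in the labelled Ihh-deleted arm, against 47.8% with RLE factors, 46.8% with DESeq2 and 24.8% with library totals. The last moved the median of all genes from -0.01 to -0.25. For the difference of injury effects, 64.4% of calls were higher, against 54.3%, 53.9% and 24.9%. Under each of these scalings Pdgfra, Pdgfrb, Acta2, Tagln and Rgs5 were lower in injured labelled Ihh-deleted kidneys.

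The levels per kilobase of transcript give the order of the members. In contralateral kidneys the highest were Rgs5 at 13.9 ± 1.4 (SD, n = 12), Pdgfra at 13.2 ± 2.30 and Myl9 at 12.9 ± 5.90 scaled CPM per kilobase, and the lowest was Pdgfa at 7.11 ± 1.59. Neighbours in that order lay within 1 SD of each other, except that Pdgfb, at 8.92 ± 1.14, was above Pdgfa by more than either SD. In injured intact kidneys Tagln led at 51.1 ± 21.7 (SD, n = 8), followed by Pdgfra at 39.2 ± 15.8, Rgs5 at 37.4 ± 6.79 and Acta2 at 36.5 ± 15.8, which did not differ beyond their spread. Pdgfc was last at 6.59 ± 1.02. In injured labelled Ihh-deleted kidneys Tagln stood at 26.0 ± 4.28 (SD, n = 4), Rgs5 at 22.3 ± 6.25 and Acta2 at 19.8 ± 1.01, and Pdgfra came after Pdgfa and Myl9, at 13.3 ± 3.21.

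The shares of single transcripts in the sums were compared without a test. Pdgfra-201 held 80.6% ± 6.37 (SD, n = 12) of the Pdgfra estimate in injured and 84.1% ± 5.98 in contralateral kidneys. Pdgfa was divided between Pdgfa-202, at 55.7% ± 5.38 in injured and 53.3% ± 7.68 in contralateral kidneys, and Pdgfa-201, at 32% ± 4.79 and 31.5% ± 6.57. Pdgfd-201 held 57.1% ± 6.94 and 59.3% ± 6.59. These differences were smaller than 1 SD between libraries, whereas Pdgfa-204, at 9.90% ± 2.26 in injured and 14.0% ± 3.86 in contralateral kidneys, differed by more than either SD.

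Contractile genes are controlled by serum response factor, which binds a short DNA element called the CArG box. Entries of the RefSeq promoter table (GRCm38.p6) were used for 7 of 10 members, with 8 windows. Pdgfrb was not searched, because its chromosome was left out of the member search. Starts here are those of RefSeq, and the windows of Acta2 and Pdgfa lie mostly or wholly inside the genes as GENCODE gives them, so the bases before the GENCODE starts were not all searched. In the 250 bases before each RefSeq start, searched on both strands, 2 of these 7 members carried the box, Myl9 and Pdgfc. Over all 32851 windows, with no chromosome left out, the share was 1.47% (482). The stretches around both boxes are shown because one belongs to a contractile member that rose and the other to the member that fell; capitals mark the box. The Myl9 stretch is chr2:156775258-156775357 on the plus strand, with the box 161 to 152 bases before the RefSeq start, which lies downstream of the gene start given above. The Pdgfc stretch is chr3:81036316-81036415 on the plus strand, with the box 17 to 8 bases before the start. A match of letters is a description and not a measured binding site.
Myl9: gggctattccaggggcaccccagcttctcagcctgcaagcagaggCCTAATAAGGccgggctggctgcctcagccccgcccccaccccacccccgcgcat
Pdgfc: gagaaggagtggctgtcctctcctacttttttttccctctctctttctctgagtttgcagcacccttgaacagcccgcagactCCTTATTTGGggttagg

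Other genes of the pathway rose and fell with injury in both directions. Of 21 genes that process PDGF ligands, bind them or relay the receptor signal, 14 rose, 4 fell and 3 did not pass in injured against contralateral kidneys, where 39.0% of all genes rose and 34.7% fell, with a median log2 change of 0.23 beside 0.05 over all genes. The largest rises were those of Pdgfrl, which encodes a secreted receptor-like protein (2.74 ± 0.29, adjusted p = 1.34e-08), of the sphingosine kinase Sphk1 (2.06 ± 0.15), and of Sparc, a matrix protein that binds PDGF (1.33 ± 0.16). The largest falls were those of Plau, the urokinase-type plasminogen activator (-0.95 ± 0.12), of the convertase Furin (-0.88 ± 0.09) and of the kinase subunit Pik3ca (-0.36 ± 0.05).

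Between injured kidneys, 3 of these 21 genes were higher and 8 lower in the labelled Ihh-deleted arm, beside 20.5% and 16.7% of all genes, with a median of -0.23 beside -0.01 over all genes. Pdgfrl (-1.46 ± 0.41, adjusted p = 0.00813), Sparc (-1.25 ± 0.25) and Lrp1, an endocytic co-receptor of the beta receptor (-1.16 ± 0.25), were the lowest. Furin (0.67 ± 0.13), Sos1, the exchange factor that turns on Ras (0.48 ± 0.09), and Ptpn2, a phosphatase of the beta receptor (0.28 ± 0.10, adjusted p = 0.0258), were higher. The injury effect differed between arms for 9 of the 21, beside 16.1% of all genes, higher for Furin, Ptpn2 and Sos1 and lower for 6, led by Lrp1 (-1.37 ± 0.33), Sparc (-1.07 ± 0.33) and the co-receptor Nrp1 (-0.84 ± 0.18, adjusted p = 0.00698).

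Contractile genes and their regulators mostly rose with injury. Of 22 genes, 18 rose, 1 fell and 3 did not pass, with a median of 1.10, beside the same 39.0% and 34.7% of all genes. Enteric actin Actg2 (2.51 ± 0.44), filamin Flna (2.11 ± 0.11) and calponin Cnn1 (1.51 ± 0.23) rose most, and smoothelin Smtn fell (-0.26 ± 0.09, adjusted p = 0.0119). In the labelled Ihh-deleted arm alone 12 of 22 rose and none fell, beside 19.3% and 14.6% of all genes. Between injured kidneys 11 were lower and 1 higher in the labelled Ihh-deleted arm, median -0.45, beside 16.7% and 20.5% of all genes. Cnn1 (-1.08 ± 0.35, adjusted p = 0.0172), Synpo2 (-1.0 ± 0.30) and caldesmon Cald1 (-0.89 ± 0.20) were the lowest, and Lmod1, a nucleator of actin filaments, was the 1 gene that was higher (0.78 ± 0.27, adjusted p = 0.0279). The injury effect was lower for 4 of 22, in a test where 5.74% of all genes were lower and 10.4% higher. Among the 4 were Synpo2 (-1.19 ± 0.40), smooth muscle myosin Myh11 (-0.98 ± 0.31) and Cald1 (-0.93 ± 0.27).

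Mural and collagen-making markers were set side by side. Of 15 mural markers, 8 rose, 4 fell and 3 did not pass with injury, median 0.54, in a comparison that called 73.7% of all genes. Cnn1, Myh11 (1.24 ± 0.15) and the Notch receptor Notch3 (1.20 ± 0.12) rose, and renin Ren1 (-1.0 ± 0.18), Ndufa4l2 (-0.59 ± 0.17) and the potassium channel gene Kcnj8 (-0.59 ± 0.16) fell. All 15 collagen-making markers rose, median 1.72, led by Mfap5 (3.08 ± 0.29), Dpt (2.86 ± 0.26) and Col1a1 (2.63 ± 0.27). The summed level of the mural list was 204 to 283 CPM in contralateral, 332 to 544 CPM in injured intact and 230 to 285 CPM in injured labelled Ihh-deleted kidneys. The collagen-making sum was 239 to 417, 978 to 3561 and 345 to 855 CPM.

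Between injured kidneys, where 16.7% of all genes were lower and 20.5% higher in the labelled Ihh-deleted arm, all 15 collagen-making markers were lower there. Their median was -1.39, with Col1a1 at -2.04 ± 0.41 (adjusted p = 0.00104), Col3a1 at -1.91 ± 0.34 and Col1a2 at -1.67 ± 0.30. Of the 15 mural markers 7 were lower and 2 higher, median -0.30. The guanylate cyclase subunit Gucy1a1 (-1.94 ± 0.31, adjusted p = 0.000201), Rgs4 (-1.43 ± 0.34) and desmin Des (-1.24 ± 0.36) were lower, and Ren1 (1.10 ± 0.26) and the channel subunit Abcc9 (0.77 ± 0.18) were higher. Of all genes, the injury effect was lower for 5.74% and higher for 10.4%. It was lower for 8 of 15 collagen-making markers, among them Col1a1 (-1.74 ± 0.54), Col6a3 (-1.53 ± 0.37) and Col3a1 (-1.53 ± 0.44). The same held for 4 of 15 mural markers, among them Gucy1a1 (-1.99 ± 0.40), Gucy1b1 (-1.38 ± 0.32) and Myh11.

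Other cell types moved with these results. The summed macrophage markers stood at 216 to 846 CPM in injured labelled Ihh-deleted and at 538 to 1796 CPM in injured intact kidneys, with all 7 lower by test. The proximal tubule sum stood at 10178 to 24560 and at 3284 to 12384 CPM, with all 7 markers higher. All 5 podocyte markers and 3 of 5 mesangial markers were lower. Over all genes, 16.7% were lower and 20.5% higher in this comparison. In bulk tissue, fewer cells of a type and less RNA per cell cannot be told apart, and the part of these shifts in the members' differences was not tested.

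Without ischaemia, no member differed by test between the arms. Between contralateral labelled Ihh-deleted and contralateral intact kidneys edgeR called none of the members and 1 gene in all, 0.00568% of those tested, with 1276 genes at an unadjusted p under 0.05. DESeq2 called 87 genes. Pdgfra differed by 0.16 ± 0.28 and Pdgfrb by 0.25 ± 0.25, with contralateral labelled Ihh-deleted libraries at 68.1, 83.8, 72.9 and 74.9 CPM of Pdgfra. The largest member difference was that of Tagln, -0.48 ± 0.29 (adjusted p = 0.793). None of the PDGF pathway, contractile, mural or collagen-making list genes passed, and the largest differences in each list were 0.24 for Cbl, -1.23 for Actg2, 0.33 for Ren1 and -0.72 for Postn.

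Contralateral kidneys were set against the 2 uninjured libraries, a comparison that called 0.455% of genes. No member passed. Pdgfra stood at 40.6 and 59.8 CPM in the uninjured libraries and Pdgfrb at 45.9 and 43.5 CPM, within or just under the contralateral range, with differences of 0.39 ± 0.40 and 0.45 ± 0.37. The largest member difference was that of Pdgfb, 0.49 ± 0.24 (adjusted p = 0.446), with uninjured libraries at 17.6 and 19.0 CPM, under all contralateral ones. Pdgfc stood at 56.4 and 25.5 CPM in the uninjured libraries, the higher value in the library of 0.592M counts. The largest list differences, none of them called, were 1.22 for Pdgfrl, -2.44 for Actg2, 1.23 for Gucy1b1 and -0.97 for Lum.

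Kidneys left after nephrectomy had the lowest mean Pdgfra and Pdgfrb of the 8 groups. Against uninjured kidneys, where 0.176% of genes were called, no member passed: Pdgfra gave -0.78 ± 0.45 (adjusted p = 0.703) and Pdgfrb -0.55 ± 0.42. At an unadjusted p under 0.05 there were 1545 genes, and DESeq2 called 113. The largest list differences were -0.54 for Sphk1, -2.17 for Actg2, 0.97 for Ren1 and -2.14 for Col5a2.

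Nephrectomy against contralateral kidneys was added after the receptor values had been seen, and called 5.63% of genes. The 3 nephrectomy libraries held 47.2, 16.8 and 28.6 CPM of Pdgfra, all below the lowest contralateral value of 47.8, and 39.0, 19.7 and 32.3 CPM of Pdgfrb. Pdgfra was lower by 1.17 ± 0.32 (adjusted p = 0.0322) and Pdgfrb by 1.0 ± 0.28 (adjusted p = 0.0371) on the log2 scale. The 8 other members did not pass, with Rgs5 at 0.02 ± 0.16 and Acta2 at -0.23 ± 0.26. Both calls were lost without nephrectomy library 2 (adjusted p = 0.286 and 0.310) or library 4 (0.145 and 0.123), and that of Pdgfrb also, at adjusted p-values of 0.05 to 0.0532, without any 1 of 6 contralateral libraries. Of the lists, Plau (-1.20 ± 0.20), Nrp1 (-0.55 ± 0.14), Cald1 (-0.75 ± 0.22), Gucy1a1 (-1.12 ± 0.33) and Gucy1b1 (-0.93 ± 0.26) were lower, and none of the 15 collagen-making markers passed. Over all genes 60.1% of the calls were higher, 50.7% with DESeq2 and 37.5% with library totals.

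Genes were ranked by how closely their levels followed Pdgfra, Pdgfrb, Acta2 and Rgs5 across libraries within groups. The measure was Pearson's r of log2 CPM centred on group means, over 29 libraries and 13277 genes, given as a description; the libraries share depth and make-up. Nearest to Pdgfra were the collagen receptor gene Ddr2 at 0.95, Gpc6 at 0.94, Colec12 at 0.94, Meis1 at 0.92 and the basement membrane gene Nid1 at 0.91. Nearest to Pdgfrb were Mrc2 at 0.95, Emilin1 at 0.93, Nid1 at 0.93, Colec12 at 0.93 and the fibrillin gene Fbn1 at 0.92. Pdgfrb ranked 26 in the order for Pdgfra and Pdgfra 15 in that for Pdgfrb, whereas Acta2 ranked 2129 in that for Pdgfra, at 0.31.

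For Acta2 the nearest gene was another member, Tagln, at 0.86. Next came Csrp1 at 0.84, Tm4sf1 at 0.83, the tropomyosin gene Tpm2 at 0.77 and Myl9 at 0.77. Nearest to Rgs5 were Ptp4a3 at 0.88, the intermediate filament gene Vim at 0.87, Entpd1 at 0.84 and Rassf2 at 0.82. Rgs5 ranked 567 in the order for Acta2, and Tagln 820 in that for Rgs5.

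Single cells place the members. Sorted live cells were sequenced from 1 injured and 1 uninjured kidney sample of 8-week-old mice. The injured sample was taken 2 weeks after 15 min of ischaemia. The libraries held 3063 and 1313 cell barcodes, medians of 2014 and 2391 unique molecular identifiers (UMIs) per cell, and 8 barcodes in both. With 1 library per condition nothing is tested, and the intervals below are exact Poisson intervals at 95% that cover counting error only. Of 21 clusters, the 2 that were divided further by mural and collagen-making markers held 112 cells, 105 of them injured. They divided into mural-like cells, with 9 injured and 2 uninjured cells, collagen-making-like cells, with 43 and 2, and 56 cells that the markers did not name. The members were left out of the genes used for clustering. The mural-like cells carried 10 of 15 mural markers at 7.18 UMIs per cell, led by genes such as Myh11, Tpm2, Pln and Cnn1, and the collagen-making-like cells carried 15 of 15 markers at 33.7 UMIs per cell, led by Dcn, Mgp and Col1a1.

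The contractile members and Rgs5 had a higher CPM in mural-like than in collagen-making-like cells. The mural markers that named these cells include the smooth muscle genes Myh11 and Cnn1. Myh11 gave 24 of the 79 mural marker UMIs over both libraries. High contractile members in mural-like cells are therefore not independent of the naming. In the injured library Acta2 reached 9820 CPM in mural-like cells (157 UMIs) and 498 CPM in collagen-making-like cells (58 UMIs). The ratio was 19.7 (14.5 to 27.1). Myl9 stood at 7756 and 197 CPM, a ratio of 39.3 (25.0 to 64.3), and Tagln at 4504 and 524 CPM, a ratio of 8.60 (6.03 to 12.3). Rgs5 had 98 of its 111 UMIs in the 9 mural-like cells (6130 CPM, interval 4977 to 7470) and 0 in the 43 collagen-making-like cells (upper limit 31.7 CPM). All 9 mural-like cells held Acta2, Tagln and Rgs5 together. In lymphocytes, which should lack these genes, 0.153% of 655 cells held Acta2 and 0.458% held Tagln, at a median of 1417 UMIs per cell against 1694 in mural-like cells.

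**Figure D3:**
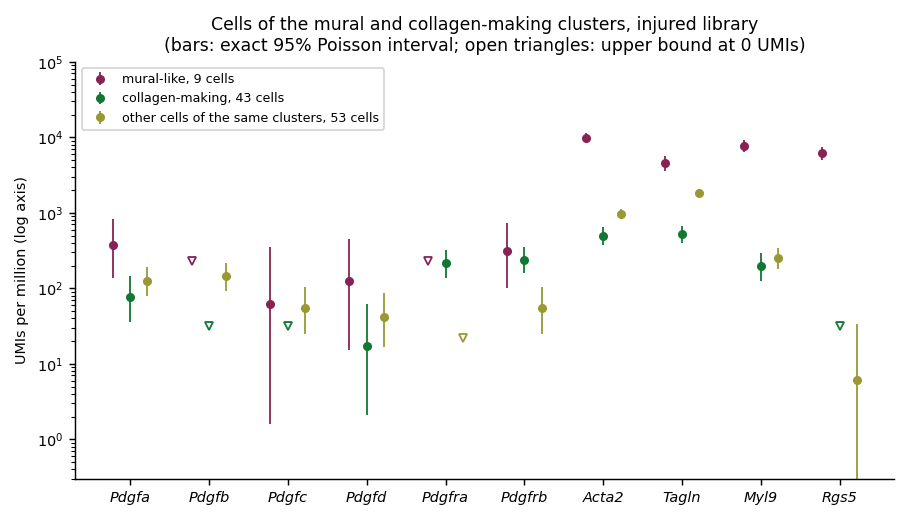
Summed CPM of each member in the mural-like cells, the collagen-making-like cells and the other 53 cells of the same 2 clusters, injured single-cell library, on a log axis, with exact 95% Poisson intervals. Acta2, Tagln, Myl9 and Rgs5 were highest in the 9 mural-like cells, at 4504 to 9820 CPM, and Pdgfra was detected in collagen-making-like cells alone among the 3 classes.

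Pdgfra was found mostly in collagen-making-like cells. Of its 26 UMIs in the injured library, 25 were in collagen-making-like cells (215 CPM, interval 139 to 317), none in mural-like cells (upper limit 231 CPM) and none in the other cells of these clusters (upper limit 22.2 CPM). The upper limit in the mural-like cells is above the collagen-making-like level, so a difference between these classes was not detectable at this depth. Pdgfrb was present in both, at 313 CPM in mural-like cells (5 UMIs) and 240 CPM in collagen-making-like cells (28 UMIs), a ratio of 1.30 (0.392 to 3.41) that does not separate them at this depth. Of the 43 collagen-making-like cells, 20 held Pdgfra, 20 held Pdgfrb and 10 held both. Acta2 was found in 9 of them, each also with Col1a1 and Tagln, and 4 cells held Acta2 with Pdgfra.

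The other 53 injured cells of these 2 clusters met the marker rule for neither class and are left unnamed. They carried 304 of the 457 Tagln UMIs (1830 CPM, interval 1630 to 2048) and 161 of the 386 Acta2 UMIs (969 CPM), but 1 Rgs5 UMI. Of the 53, 35 held Tagln, 21 held Acta2, 19 held both and 4 held Col1a1. In both libraries their 2 sub-clusters, of 40 and 16 cells, were led by Ankrd1, Ly6a, Clu and Sfrp2 and by Igfbp2, S100g and Hp. They held 21 and 17 UMIs of Wt1 and 36 and 0 of the epithelial cadherin Cdh16, with 0 UMIs of the podocyte gene Nphs1.

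Ligand UMIs were spread over more cell types. Pdgfb had 24 of its 110 UMIs in these 53 unnamed cells (144 CPM, interval 92.6 to 215), 27 in macrophages (32.6 CPM) and 22 in endothelial cells (46.3 CPM, interval 29 to 70.1). None were in mural-like or collagen-making-like cells (upper limits 231 and 31.7 CPM). The limit in mural-like cells is above the levels of the other classes named, so a lower level there was not detectable. Pdgfd had 31 of 74 in endothelial cells (65.3 CPM, interval 44.3 to 92.6) and 11 in proximal tubule cells (4.65 CPM). Pdgfc had 26 of 62 in proximal tubule cells (11 CPM), 10 in endothelial cells (21.1 CPM), 10 in distal nephron and collecting duct cells (12.0 CPM) and 9 in the 53 unnamed cells (54.2 CPM). Pdgfa, with 261 UMIs, had 82 in 1 unnamed cluster of 198 cells led by Cryab and Lcn2, 41 in distal nephron and collecting duct cells, 34 in endothelial cells and 33 in macrophages, and its ratio of mural-like to collagen-making-like cells was 4.86 (1.42 to 15.3) on 6 and 9 UMIs.

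**Figure D4:**
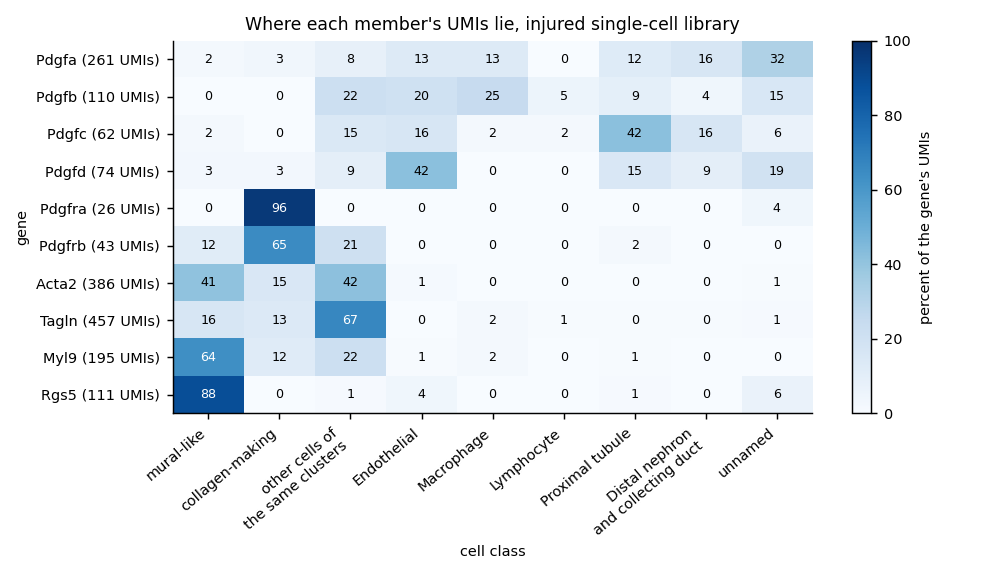
Percentage of each member's UMIs in the injured single-cell library that fell in each class of cells. Rgs5 and Myl9 were mostly in mural-like cells, Pdgfra and Pdgfrb mostly in collagen-making-like cells, Tagln mostly in the other cells of the same 2 clusters, and the ligands were divided over several classes.

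In all, 8 of 10 members had a higher CPM in mural-like than in collagen-making-like cells, Pdgfc on 1 UMI against 0 and Pdgfd on 2 against 2. The intervals of the ratio included 1 for Pdgfd (0.528 to 101) and for Pdgfrb (0.392 to 3.41). The share of all genes with a higher CPM in mural-like cells was not counted. When cells were gated by marker UMIs instead, giving 23 mural and 110 collagen-making cells, the count was 7, Pdgfrb turned to -0.71 and Pdgfd to -0.08 on the log2 scale, and Acta2, Tagln, Myl9 and Rgs5 stood at 2.09, 0.93, 3.45 and 7.76. Leaving out the 5% of cells with the highest doublet scores left 3 of the 9 mural-like cells, and 6 members higher. In the uninjured library the 2 mural-like cells held 56 of 65 Acta2 UMIs, 24 of 32 of Myl9 and 17 of 20 of Rgs5, but 9 of 39 of Tagln.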

How the data were processed

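Of the 10 samples, 8 are bulk and 2 single-cell. The bulk values are expected counts of transcripts, estimated by the authors with Salmon 1.4 per the submitters' processing notes (builds GRCm38 and mm10), which spread ambiguous reads over transcripts. It has 4 columns for each of 8 samples, taken as libraries. The single-cell tables hold deposited UMI counts (10x 3' v2, Cell Ranger and STAR per the labels), and were tied to their samples by name. Members and gene lists were chosen with earlier results of these data known.

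Of 105833 transcripts, 105203 were found in GENCODE M21, and 630, with 0.213% of counts, were left out. Estimates were summed per gene and rounded to whole numbers. 29 libraries were fitted with edgeR 4.0.16 in R 4.3.3 (TMM, filterByExpr, 1 coefficient per group, quasi-likelihood F test, Benjamini-Hochberg, threshold 0.05). Standard errors are the log2 change over the square root of F. The fit was also run on simulated counts in which few genes changed, equally in both directions, unlike these data. That run cannot judge the choice of scaling. Cells were clustered with scanpy 1.11.5 (Leiden, resolution 1, stromal cells again at 0.5), without the members. A stromal sub-cluster was named with at least 5 markers and 5 marker UMIs per cell. Scrublet marked 5 and 3 doublets, and none were removed.

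From each list the text names the 3 genes per direction with the largest called change, or the largest as values where none passed, and for likeness the 5 genes of highest r among those whose log2 CPM averaged 1 or more; 1 such gene is not reported here. Alternatives were RLE factors, DESeq2 1.42.0, no low-count filter, all 32 columns, a transcript length offset, the 24 ischaemia libraries alone, each arm alone, a replicate block, each library left out, and, chosen after the data were seen, library totals as scaling.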

Additional observations from a re-analysis of the deposited data

Results flagged for a closer look

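The injury effect differed between the labelled Ihh-deleted arm and the intact arms, by the test of the difference itself, for 3 members: Pdgfra at -1.76, Pdgfrb at -1.60 and Rgs5 at -0.87 on the log2 scale. Contralateral wild-type library 4 stood apart from the other 3 libraries of its group in Pdgfa, at 14.5 CPM against 10.5 to 10.6. Over the 60 groups examined in this way chance would flag about 1 in 20. The 3 heart-profile libraries that were left out held Rgs5 at 526 CPM or more before scaling, above every retained library.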

How the results depend on the processing

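Counts of members called were taken under each alternative. For injured against contralateral kidneys it stayed at 9 of 10 without any 1 library, and for injured labelled Ihh-deleted against injured intact kidneys it was 4 to 7 (5 with all libraries), for the difference of injury effects 3 to 4, and for nephrectomy against contralateral kidneys 0 to 2. With all 32 columns, 2 members were called between injured kidneys, 0 for the difference of injury effects and 3 between contralateral and uninjured kidneys. Library totals gave 8 between injured kidneys and 5 for the difference, and wild-type alone as control gave 3. Values that turned were Pdgfra at -0.18 and Pdgfrb at -0.60 in the labelled Ihh-deleted arm alone, and, with the heart-profile columns kept, Rgs5 at -3.04 in contralateral against uninjured and Acta2 at 1.53 in nephrectomy against contralateral kidneys. The cause was not tested.

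With all 32 columns the genes called fell from 6539 to 1657 between injured kidneys and from 2834 to 167 for the difference, and went from 80 to 6002 in contralateral against uninjured, from 990 to 1898 in nephrectomy against contralateral and from 31 to 54 in nephrectomy against uninjured kidneys. The labelled Ihh-deleted arm alone called 5953 genes for injury, against 12972 over the arms, and vehicle alone as control 2881 between injured kidneys. Between contralateral arms, where 1 gene was called, RLE factors gave 7, library totals 9, DESeq2 87 and vehicle alone as control 183. Nephrectomy against uninjured kidneys gave 11 with library totals, 113 with DESeq2 and 48 with the length offset. Without injured labelled Ihh-deleted library 3 the comparison between injured kidneys called 3534 genes. Leaving out 1 library moved the difference of injury effects most without injured labelled Ihh-deleted library 3 (854 genes) or 4 (4842), contralateral against uninjured without uninjured library 2 (15) or contralateral vehicle library 2 (266), nephrectomy against contralateral without nephrectomy library 2 (316) or contralateral vehicle library 2 (1691), and nephrectomy against uninjured without nephrectomy library 1 (76) or 4 (2) or uninjured library 2 (2). Column numbers did not pair the libraries, with correlations of -0.33 to 0.25 over 12 pairs and the own number best in 5. A replicate block gave 9 members and 12398 genes for injury. Uninjured library 2, at 0.592M counts, limits every comparison with uninjured kidneys, and the 9 mural-like cells limit the single-cell ratios.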
